A study of Mus musculus with 8 samples.

Results

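Fibroblasts build and remodel the extracellular matrix, and many of the transcripts they carry are nearly silent in cells of the blood lineage. The 10 transcripts described here code for non-collagen products that are typical of fibroblasts, namely Efemp1, Fbn1, Aebp1, Lox, Sparc, Igfbp6, Scube2, Thy1, Pdgfrb and Aqp1, and they were followed in bone marrow-derived Mϕ (BMDMs) that had or had not met apoptotic fibroblasts. They were taken by symbol from the 55359 genes listed, and all 10 were found and passed the minimum mean of 10 normalized counts over the 8 samples that the tests required. The members were chosen by their differences between efferocytic and naïve Mϕ, in Eff against Ctrl and LPSEff against LPS, so that those differences are given as a description, and the calls counted for them below are no independent support.

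Total RNA was sequenced from 8 samples in 4 groups of n = 2, all from C57BL/6 wildtype mice. BMDMs of adult male and female animals were differentiated with 20 ng/mL M-CSF and 20 ng/mL GM-CSF, for which the labels give both 6 and 7 days. Ctrl were naïve Mϕ and LPS were naïve Mϕ given LPS (100 ng/mL) together with IFNγ (100 U/mL) for 6 h. Eff were efferocytic Mϕ, co-cultured for 16 h with apoptotic NIH-3T3 fibroblasts at a ratio of 1:5 in the presence of 10 nM dimerizer, and LPSEff were such Mϕ that were freed of apoptotic cells by a PBS wash before the same 6 h stimulation. The fibroblasts were the mouse NIH-3T3 CA line, which dies when the dimerizer activates its caspase, and harvested cells were enriched for CD45 with magnetic beads in every group. Both cell sources are mouse, so that a read cannot be assigned to the Mϕ or to the engulfed fibroblast. In bulk RNA, fewer cells of a type and less RNA per cell cannot be told apart. The labels do not say how long the Eff samples were kept after co-culture. LPSEff differs from Eff in the stimulation and may differ in time too, so that both cannot be told apart in that comparison.

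Efferocytosis is the uptake of apoptotic cells by phagocytes, which digest proteins, lipids and nucleic acids of the corpse in phagolysosomes. Fibrillin-1 (Fbn1) and the fibulin Efemp1 belong to the microfibrils and elastic fibres of the matrix, lysyl oxidase (Lox) cross-links collagen and elastin, and the collagen-binding protein of Aebp1 takes part in collagen assembly. Sparc codes for a matricellular glycoprotein, Igfbp6 for a secreted protein that binds insulin-like growth factors, Scube2 for a secreted protein that helps to release hedgehog ligands, and Thy1, Pdgfrb and Aqp1 for a surface glycoprotein, the PDGF receptor β and a water channel.

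Depth ranged from 3481288 to 12020918 reads per sample, so that 3 reads corresponded to between 1.73 and 5.71 normalized counts. Mϕ markers were high in every sample: Ptprc, which codes for CD45, lay between 2526 and 10958 normalized counts and Itgam between 12463 and 18792. The 16 tested Mϕ identity genes had median log2 differences of -0.07 in Eff against Ctrl and 0.07 in LPSEff against LPS, ranging from -0.75 to 0.53 and from -0.55 to 0.47. With the replicate number as a block, limma called Itgax lower in Eff than in Ctrl, as it did 159 of all 16309 genes. All 8 lymphocyte markers stayed below the minimum mean, with sums between 8.88 and 25.9 normalized counts.

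The 10 transcripts fell into different patterns, which the plot of levels by sample shows. Efemp1, Aqp1, Igfbp6, Aebp1 and Sparc were below 50 normalized counts in each of the 4 naïve samples and between 28.0 and 1288 in the 4 efferocytic ones, a grouping made after the values had been seen. Fbn1, Lox and Pdgfrb rose in naïve Mϕ with LPS/IFNγ, and Scube2 had both LPS samples above both Ctrl samples. Thy1 and Lox overlapped between efferocytic and naïve samples in both comparisons, and Pdgfrb was lower in LPSEff than in LPS. For Thy1, Lox and Pdgfrb the data thus go against the description as transcripts that mark efferocytic Mϕ. For Scube2 they do so under stimulation, where LPSEff and LPS samples overlapped, although both Eff samples were above both Ctrl samples.

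**Figure D1:**
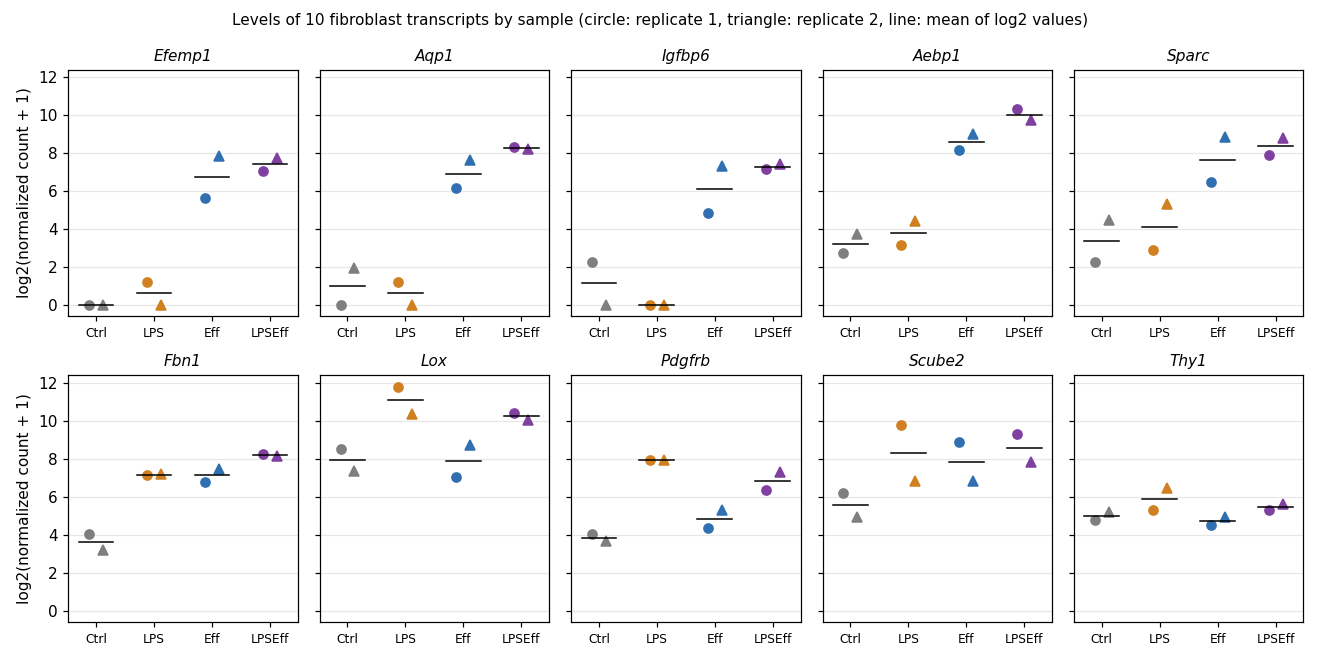
Each panel plots log2(normalized count + 1) of 1 transcript (vertical axis) in the 4 groups, with a circle for replicate 1, a triangle for replicate 2 and a line at the mean of the log2 values. Efemp1, Aqp1, Igfbp6, Aebp1 and Sparc separate all 4 efferocytic from all 4 naïve samples, whereas the highest values of Lox, Pdgfrb, Scube2 and Thy1 are in the LPS group.

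Promoter sequence is shown for members of both patterns, Efemp1 and Aebp1 from the transcripts scarce in naïve Mϕ and Fbn1 and Scube2 from those whose LPS samples lay above Ctrl. The 250 bases before the start of transcription came from RefSeq on build GRCm38.p6, in which 7 of the 10 members were matched and used, whereas gene positions below are on GRCm39. Capitals mark the GC box GGGCGG on either strand and, in Efemp1, the AP-1 motif TGANTCA.
Efemp1, chr11:28852955-28853204, plus strand: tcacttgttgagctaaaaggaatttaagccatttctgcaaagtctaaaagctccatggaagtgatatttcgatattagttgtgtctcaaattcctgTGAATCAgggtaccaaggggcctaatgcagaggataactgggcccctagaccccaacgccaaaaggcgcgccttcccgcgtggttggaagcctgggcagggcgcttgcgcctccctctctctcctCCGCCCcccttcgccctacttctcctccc
Aebp1, chr11:5861616-5861865, plus strand: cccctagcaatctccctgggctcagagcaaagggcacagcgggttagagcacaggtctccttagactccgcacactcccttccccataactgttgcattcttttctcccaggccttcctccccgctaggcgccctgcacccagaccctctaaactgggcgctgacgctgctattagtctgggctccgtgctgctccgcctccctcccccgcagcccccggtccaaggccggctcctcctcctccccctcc
Fbn1, chr2:125506439-125506688, minus strand: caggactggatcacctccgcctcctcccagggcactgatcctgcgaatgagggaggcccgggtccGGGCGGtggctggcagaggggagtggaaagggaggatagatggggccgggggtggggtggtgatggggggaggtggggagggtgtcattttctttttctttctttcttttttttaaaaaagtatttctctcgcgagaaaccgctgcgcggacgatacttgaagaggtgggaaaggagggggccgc
Scube2, chr7:109865680-109865929, minus strand: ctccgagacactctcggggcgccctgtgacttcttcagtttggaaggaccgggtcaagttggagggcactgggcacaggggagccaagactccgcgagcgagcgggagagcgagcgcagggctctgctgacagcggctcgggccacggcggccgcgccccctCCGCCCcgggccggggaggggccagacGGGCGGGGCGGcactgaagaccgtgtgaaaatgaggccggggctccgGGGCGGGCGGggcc

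The GC box was found in 4 of the 7 promoters (Efemp1, Aqp1, Fbn1 and Scube2), against 32.7% of 32851 RefSeq promoters of the same length. TGANTCA was found in Efemp1 alone of the 7 (6.75% of all promoters), TATAAA in Igfbp6 alone (12.4%) and the E-box CAGCTG in Sparc alone (13.0%). Letters of the TEAD motif CATTCC (12.6% of all), the forkhead motif TGTTTAC (3.17%) and the interferon motif TTCNNNGAA (7.02%) were in none of the 7 windows. Both strands were searched, no motif contains another, and the last motif was added after the others. A match describes letters and is not a measured binding site.

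The 5 transcripts scarce in naïve Mϕ are taken by role, beginning with the matrix. Efemp1 (chr11:28803150-28876825, GRCm39, plus strand) codes for fibulin-3. It was at 0 and 0 normalized counts in Ctrl, 1.29 and 0 in LPS, against 48.2 and 227 in Eff and 131 and 217 in LPSEff. Of the 4 naïve samples only 1 held a read, and the lowest efferocytic sample was Eff replicate 1 with 55 reads. The level in Eff was at least 110-fold that in Ctrl, counting 3 reads over the Ctrl group, and the level in LPSEff was 289-fold that in LPS, with a 95% counting interval from 51.5 to 11442. These bounds and intervals cover counting error only. A gene model on the other strand, Gm74394, overlaps Efemp1, so that its counts are uncertain where strand was not kept.

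Aebp1 (chr11:5811762-5822112, plus strand) was the most abundant of the 5. Its normalized counts were 5.71 and 12.1 in Ctrl, 7.76 and 20.3 in LPS, against 293 and 520.1 in Eff, and 1288 and 866 in LPSEff. All 4 efferocytic samples were above all 4 naïve ones, and both LPSEff samples were above both Eff samples. On the scale of log2(normalized count + 1), which understates changes of low genes, the difference was 5.38 (SE 0.52) for Eff against Ctrl and 6.27 (SE 0.52) for LPSEff against LPS. Both LPSEff samples together gave 2309 reads of Aebp1, against 26 in both LPS samples.

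Sparc (chr11:55285317-55314067, minus strand), the matricellular member, had 3.81 and 21.4 normalized counts in Ctrl, 6.47 and 38.6 in LPS, against 87.6 and 462 in Eff and 242 and 453 in LPSEff. Efferocytic and naïve samples did not overlap, but replicate 2 was above replicate 1 in all 4 groups. The log2 difference was 4.29 (SE 1.05) for Eff against Ctrl and 4.27 (SE 1.05) for LPSEff against LPS.

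Igfbp6 (chr15:102052697-102057953, plus strand) codes for the binding protein that prefers IGF-II. It was at 3.81 and 0 normalized counts in Ctrl, 0 and 0 in LPS, against 28.0 and 162 in Eff and 143 and 170.1 in LPSEff. Naïve Mϕ thus held 2 reads in all. The level in Eff was 115-fold that in Ctrl (95% counting interval from 31.5 to 955), and that in LPSEff was at least 89.7-fold that in LPS, counting 3 reads over the LPS group. The opposite-strand gene model Gm63163 overlaps Igfbp6.

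The water channel transcript Aqp1 (chr6:55313068-55325540, plus strand) was at 0 and 2.89 normalized counts in Ctrl, 1.29 and 0 in LPS, against 70.1 and 195 in Eff and 326 and 298 in LPSEff. Both LPSEff samples were above both Eff samples, and no naïve sample held more than 5 reads. Its log2 difference was 5.90 (SE 0.77) for Eff against Ctrl. The level in LPSEff was 555-fold that in LPS, with a 95% counting interval from 99.2 to 21936.

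Summed over these 5, normalized counts were 13.3 and 36.4 in Ctrl, 16.8 and 58.9 in LPS, against 527 and 1565 in Eff and 2130.5 and 2004 in LPSEff. Aebp1 made up the largest share in every efferocytic sample, from 33.2% in Eff replicate 2 to 60.5% in LPSEff replicate 1. Sparc gave 16.6% and 29.5% of the sum in the Eff samples and 11.4% and 22.6% in the LPSEff samples, replicate 2 being the higher in both.

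The other 5 transcripts were present in naïve Mϕ and most responded to LPS/IFNγ there, a comparison that did not choose the members. Fbn1 (chr2:125142514-125349913, minus strand) codes for fibrillin-1. Its normalized counts were 15.2 and 8.10 in Ctrl, 141 and 146 in LPS, against 109.5 and 179 in Eff and 306 and 284 in LPSEff. Ctrl was low and all other samples were high, with both LPSEff samples the highest. Fbn1 rose with LPS/IFNγ in naïve Mϕ by 3.57 on the log2 scale (SE 0.35, limma adjusted p = 0.000341). In Eff against Ctrl the log2 difference was 3.54 (SE 0.35) and in LPSEff against LPS 1.03 (SE 0.35). The opposite-strand model Gm9913 overlaps Fbn1.

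Lox (chr18:52649136-52663110, minus strand), the cross-linking enzyme, was at 368 and 165 normalized counts in Ctrl, 3620.2 and 1335 in LPS, against 131 and 425 in Eff and 1366 and 1084 in LPSEff. All 4 stimulated samples were above all 4 unstimulated ones, and efferocytic samples overlapped naïve ones with and without stimulation. Lox rose with LPS/IFNγ in naïve Mϕ by 3.15 (SE 0.64, limma adjusted p = 0.00958), and by 3.87 without LPS replicate 2 and 2.43 without LPS replicate 1. Without Ctrl replicate 2 the difference was 2.58 with adjusted p = 0.0706. Its log2 differences with efferocytosis were -0.06 (SE 0.64) in Eff against Ctrl and -0.85 (SE 0.64) in LPSEff against LPS. The opposite-strand model Gm41724 overlaps Lox.

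Pdgfrb (chr18:61178212-61218133, plus strand) had 15.2 and 11.6 normalized counts in Ctrl, 246 and 245 in LPS, against 19.3 and 38.1 in Eff and 82.3 and 157 in LPSEff. The receptor transcript was thus highest in stimulated naïve Mϕ, with both LPSEff samples below both LPS samples and both Eff samples above both Ctrl samples. Pdgfrb rose with LPS/IFNγ in naïve Mϕ by 4.11 (SE 0.42, limma adjusted p = 0.000418), the largest such difference among the 10. With efferocytosis its log2 differences were 0.98 (SE 0.42) in Eff against Ctrl and -1.10 (SE 0.42) in LPSEff against LPS.

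Scube2 (chr7:109395631-109464906, minus strand) varied widely between replicates. It was at 72.4 and 29.5 normalized counts in Ctrl, 883 and 115 in LPS, against 471 and 114 in Eff and 629 and 227 in LPSEff. Its log2 differences with efferocytosis were 2.30 (SE 1.02) in Eff against Ctrl and 0.25 (SE 1.02) in LPSEff against LPS. In the latter comparison the samples overlapped. Replicate 1 was above replicate 2 in all 4 groups, with a ratio of replicate 2 to replicate 1 of 0.130 in LPS and 0.241 in Eff, which is the reverse of Sparc. The log2 difference of LPS against Ctrl was 2.76 (SE 1.02) with limma adjusted p = 0.0890, and adjusted p = 6.56e-05 with the replicate number as a block. It was 4.22 with adjusted p = 0.0196 without LPS replicate 2 and 1.29, not past the threshold, without LPS replicate 1.

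Thy1 (chr9:43954332-43959880, plus strand), a common surface marker of fibroblasts, was at 26.7 and 36.4 normalized counts in Ctrl, 38.8 and 88.3 in LPS, against 21.9 and 29.6 in Eff and 38.0 and 48.2 in LPSEff. The highest sample was a naïve one, LPS replicate 2, and the lowest was Eff replicate 1. Its log2 differences were -0.28 (SE 0.44) in Eff against Ctrl and -0.44 (SE 0.44) in LPSEff against LPS. LPS against Ctrl gave 0.89 (95% interval from -0.12 to 1.90, limma adjusted p = 0.190), and adjusted p = 0.0412 with the replicate block.

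Counted over the 10, limma called 3 higher in LPS than in Ctrl (Fbn1, Pdgfrb and Lox), where 12.4% of all 16309 tested genes were called higher, and 5 with the replicate block (20.5% of all). The groups did not overlap for 5 members, all higher with LPS/IFNγ, against 28.4% of all genes. The median log2 difference was 0.81 over the members and -0.01 over all genes. With samples rescaled to equal totals the median of all genes moved to -0.40 in this comparison and to -0.44 in LPSEff against Eff, because the stimulated samples had higher summed normalized counts.

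In the comparisons that chose the members, 4 of 10 passed the same threshold as higher in Eff than in Ctrl (Efemp1, Aqp1, Aebp1 and Fbn1), beside 0.215% of all genes, and 4 as higher in LPSEff than in LPS (Efemp1, Aqp1, Igfbp6 and Aebp1), beside 0.73%. With the replicate block these counts were 7 (1.7% of all; Igfbp6, Sparc and Scube2 in addition) and 5 (4.32%; Sparc in addition). Samples did not overlap for 8 members, all higher in Eff than in Ctrl (16.3% of all genes), for 6 higher in LPSEff than in LPS (19.3%) and for Pdgfrb lower there (17%). The medians of the members' log2 differences, 3.91 and 2.65, lie between Fbn1 and Sparc in both comparisons and do not depend on the transcripts at 0 reads. These counts follow from the choice of the members.

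**Figure D2:**
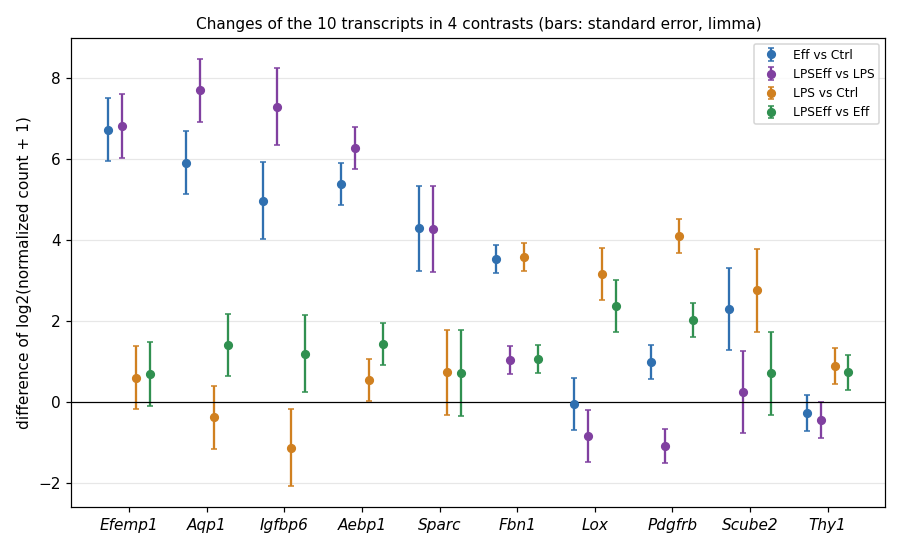
The vertical axis plots the difference of log2(normalized count + 1) for each of the 10 transcripts in 4 comparisons, with bars of 1 standard error from limma. Fitted values of Efemp1, Aqp1 and Igfbp6 rest on naïve groups near 0 reads and depend on the pseudocount. Efemp1, Aqp1, Igfbp6, Aebp1 and Sparc are high in both efferocytosis comparisons, and Fbn1, Lox and Pdgfrb are the members called in LPS against Ctrl.

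What remained 6 h after washing was read from LPSEff against Eff, whose time of harvest is not given, and against LPS. All 5 transcripts that were scarce in naïve Mϕ were still far above the LPS group, and the mean of each normalized count was above its Eff level. Normalized counts summed to more in the LPSEff than in the Eff samples. Rescaled to equal totals, the log2 differences of LPSEff against Eff were 0.24 for Efemp1, 0.27 for Sparc and 0.74 for Igfbp6. Among samples numbered 2, the median ratio of the 5 was then 0.763, so that the comparison with Eff depends on the normalization. The mean level in LPSEff relative to Eff was 1.27-fold for Efemp1, 1.27-fold for Sparc, 1.65-fold for Igfbp6, 2.35-fold for Aqp1 and 2.65-fold for Aebp1. Their log2 differences were 0.68 for Efemp1 (95% interval from -1.11 to 2.48, limma adjusted p = 0.610), 0.71 for Sparc (from -1.70 to 3.13, adjusted p = 0.702) and 1.19 for Igfbp6 (from -0.98 to 3.36, adjusted p = 0.443). Intervals this wide include both a fall by more than 1 on the log2 scale for Efemp1 and Sparc and a rise by more than 2, so that neither a fall nor a rise was detectable at this depth and n.

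Aqp1 and Aebp1 had both LPSEff samples above both Eff samples. The log2 difference of Aqp1 was 1.40 (95% interval from -0.37 to 3.18, limma adjusted p = 0.258). It was called by DESeq2 (adjusted p = 0.0477) and, with the block, by edgeR (adjusted p = 0.00817) and DESeq2 (adjusted p = 0.00173). Neither limma with the block (adjusted p = 0.126) nor edgeR without it (adjusted p = 0.105) called it. That of Aebp1 was 1.43 (from 0.24 to 2.62), with adjusted p = 0.0918 and with adjusted p = 0.0111 when the replicate number was a block. Rescaled to equal totals, the difference of Aebp1 was 0.98 (limma adjusted p = 0.160) and that of Aqp1 0.96 (limma adjusted p = 0.395).

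Of all 10 members, limma called Pdgfrb and Lox higher in LPSEff than in Eff, where 10.7% of all genes were called higher, and with the block also Aebp1 and Fbn1, where 19% were. Pdgfrb rose by 2.03 (SE 0.42, adjusted p = 0.0118) and Lox by 2.36 (SE 0.64, adjusted p = 0.0354). Without Eff replicate 1, adjusted p was 0.0752 for Pdgfrb and 0.187 for Lox, whose difference was then 1.52, against 3.21 without Eff replicate 2. Without LPSEff replicate 2 it was 0.0756 for Pdgfrb and 0.0930 for Lox, and without LPSEff replicate 1 it was 0.152 for Lox, which with equal totals had adjusted p = 0.0597. Fbn1 was higher by 1.07 (95% interval from 0.27 to 1.87), with adjusted p = 0.0657 and adjusted p = 0.0197 with the block. For 6 members both LPSEff samples were above both Eff samples (29.5% of all genes).

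The replicates differed in how LPSEff compared with Eff. Among samples numbered 1, the 5 transcripts scarce in naïve Mϕ were 2.73 to 5.08 times as high in LPSEff as in Eff (median 4.40). Among samples numbered 2, the ratio ran from 0.958 to 1.66 (median 1.05), and with equal totals from 0.695 to 1.21 (median 0.763). Eff replicate 1 was the low sample: Eff replicate 2 exceeded it 1.78-fold to 5.76-fold for these 5, whereas LPSEff replicate 2 was 0.672 to 1.87 times LPSEff replicate 1. The labels do not say that samples with the same number share a preparation.

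Collagens and laminins with at least 10 reads in every efferocytic sample were compared too, a filter that favours genes high in those samples. Of these, 12 stayed below 50 normalized counts in naïve Mϕ. Their median ratios of LPSEff to Eff were 2.65 among samples numbered 1 and 1.16 among samples numbered 2. Eff replicate 2 was 1.89 times Eff replicate 1 in their median. They thus moved between replicates in the same way as the scarce members. Of the members that exceeded 50 normalized counts in a naïve sample, Lox (10.5 and 2.55) and Fbn1 (2.80 and 1.59) also had the higher ratio among samples numbered 1. The ratios were 4.27 and 4.13 for Pdgfrb and 1.73 and 1.63 for Thy1, and Scube2 had the higher one among samples numbered 2 (1.34 and 2.00).

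**Figure D3:**
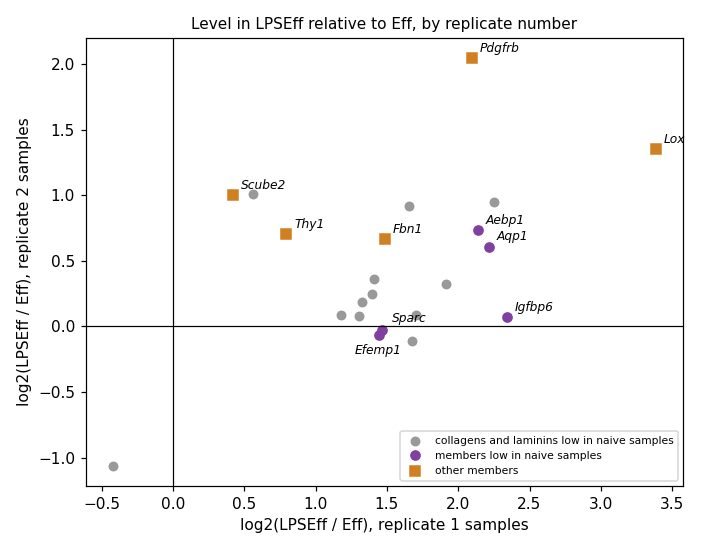
The horizontal axis plots log2 of LPSEff divided by Eff for samples numbered 1 and the vertical axis the same for samples numbered 2, with 1 point per transcript. All 10 transcripts lie to the right of 0, and Sparc and Efemp1 lie just below 0 on the vertical axis. Grey points are the 12 collagens and laminins that were low in naïve Mϕ and had at least 10 reads in every efferocytic sample.

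How far the response to LPS/IFNγ differed between naïve and efferocytic Mϕ is the interaction, the difference between both LPS/IFNγ effects. It equals the difference between both efferocytosis effects, which chose the members, so that it is given as a description without a p. For Fbn1 the LPS/IFNγ effects were 3.57 in naïve and 1.07 in efferocytic Mϕ, an interaction of -2.50 (SE 0.49). For Pdgfrb they were 4.11 and 2.03, an interaction of -2.08 (SE 0.59). limma called 0% of the 16309 genes for the interaction, and edgeR and DESeq2 called no member. DESeq2 with the block called Fbn1, Pdgfrb and Scube2 lower, among 9 genes called lower and 20 called higher. These calls rest on the differences that chose the members and are no independent support.

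Per kilobase of merged exons, Lox was the highest member in Ctrl (mean 54.0 normalized counts per kb, SD 29.1) and in LPS (503, SD 328), followed in both by Scube2 (8.21, SD 4.88, and 80.4, SD 87.6). The order changed in efferocytic Mϕ. In Eff, Aebp1 (87.7, SD 34.7), Igfbp6 (68.7, SD 68.4), Sparc (64.4, SD 62.0), Lox (56.3, SD 42.2), Scube2 (47.1, SD 40.7), Aqp1 (44.6, SD 29.8) and Efemp1 (30.3, SD 27.8) came first, and none of these neighbours differed by more than their spread. In LPSEff, Lox (248, SD 40.4) and Aebp1 (232, SD 64.5) led, within their spread of each other and above Igfbp6 (113, SD 14.1) and Aqp1 (105, SD 6.64). Thy1 was last in LPSEff (9.62, SD 1.61) and Pdgfrb in Eff (3.54, SD 1.64).

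Relatives of the members by role were read from the same fit, from lists written with earlier results known. Over all genes, 0.215% passed as higher in Eff against Ctrl and 0.73% in LPSEff against LPS. With the block 1.7% and 4.32% did, and 433 of the 16309 genes passed as lower in LPSEff against LPS. Among 10 other elastic fibre genes, Ltbp1, a latent TGFβ binding protein, passed the threshold in Eff against Ctrl, and Fbln2 and Ltbp2 in LPSEff against LPS. Fbln2, a fibulin like Efemp1, was at 5.71 and 23.1 normalized counts in Ctrl, 14.2 and 43.7 in LPS, against 223 and 430.5 in Eff and 862 and 525 in LPSEff, so that it was low in naïve and high in efferocytic samples. The median log2 difference of the list was 1.09 in Eff against Ctrl and 1.81 in LPSEff against LPS, against -0.01 and -0.0025 over all genes. With the replicate block, 5 and 6 of the list passed.

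Around Lox and Aebp1, 1 of 11 cross-linking and collagen-processing genes passed in LPSEff against LPS (Pcolce, an enhancer of procollagen processing, with 5.17 and 8.12 normalized counts in LPS and 125 and 100.3 in LPSEff), and the list's medians were 0.49 and 0.53. With the block, 3 passed in Eff against Ctrl and 2 in LPSEff against LPS. In LPS against Ctrl, 5 of the 11 were called higher and 1 lower, where 12.4% of all genes were called higher and 1895 of 16309 lower. With the block, 8 were called higher (20.5% of all) and 1 lower (3380 of 16309). The hydroxylases P4ha1 (1.09, SE 0.21, limma adjusted p = 0.00802) and Plod3 (0.71, SE 0.19, adjusted p = 0.0314) rose, and Plod1, a lysyl hydroxylase as well, fell (-0.86, SE 0.17, adjusted p = 0.00827). Of 3 tested carboxypeptidase genes, the family whose domain Aebp1 holds, Cpe passed in both efferocytosis comparisons, with at most 15.2 normalized counts in naïve Mϕ and 67.5 and 189 in Eff and 262 and 363 in LPSEff.

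Beside Sparc, 1 of 9 matricellular genes passed in Eff against Ctrl, Thbs2, with 1.90 and 1.73 normalized counts in Ctrl and 27.2 and 62.1 in Eff. With the block, 4 passed there and 2 in LPSEff against LPS. Thbs1 rose with LPS/IFNγ in naïve Mϕ by 3.09 (SE 0.67, limma adjusted p = 0.0125) and Spp1, abundant in every group, differed by -0.02 (SE 0.54). Beside Pdgfrb, the other PDGF receptor Pdgfra passed in both efferocytosis comparisons, and with the block the ligand Pdgfa did too. Pdgfra was at 24.8 and 13.3 normalized counts in Ctrl, 14.2 and 19.3 in LPS, against 112 and 258 in Eff and 412 and 367 in LPSEff. It was high in the efferocytic samples only, and its log2 difference in LPS against Ctrl was -0.13 (SE 0.45, limma adjusted p = 0.878), beside 4.11 for Pdgfrb.

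Relatives of Igfbp6, Aqp1, Scube2 and Thy1 were read next. The 8 tested genes of the IGF axis had median log2 differences of 0.16 in Eff against Ctrl and 0.18 in LPSEff against LPS, with ranges from -0.67 to 1.83 and from -0.80 to 0.80. With the block, the receptor gene Insr was called lower in LPSEff than in LPS. Aqp9, the most abundant other aquaporin, was at 232 and 355 normalized counts in Ctrl and 165 and 199 in Eff. The 11 hedgehog genes had medians of 0.13 and 0.01, with ranges from -1.06 to 2.81 and from -1.02 to 3.68. In LPSEff against LPS, with the block, 2 passed as higher and 1 as lower, and 1 as higher in Eff against Ctrl. Those higher in LPSEff were Smo, which transduces the signal (10.3 and 2.03 normalized counts in LPS, 62.5 and 87.6 in LPSEff), and the co-receptor Gas1 (12.9 and 2.03 in LPS, 82.3 and 66.0 in LPSEff). The lower gene was Scube1, a relative of Scube2, with 85.4 and 109 normalized counts in LPS and 48.3 and 45.7 in LPSEff. The receptor Ptch1 rose with LPS/IFNγ by 2.57 (SE 0.32, limma adjusted p = 0.00106). Of 13 mesenchymal surface genes, the collagen receptor Ddr2 passed in LPSEff against LPS, with 3.88 and 8.12 normalized counts in LPS and 167 and 217 in LPSEff. With the block, 3 passed there and 1 in Eff against Ctrl. The medians of this list were 0.23 in Eff against Ctrl and 0.46 in LPSEff against LPS. The ranges were from -0.64 to 3.73 and from -0.50 to 4.84.

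Part of the other fibroblast products moved with the members. Of 19 tested collagens and laminins, 7 passed as higher in Eff than in Ctrl and 9 as higher in LPSEff than in LPS, and of 15 other secreted products 4 and 6 did, beside 0.215% and 0.73% of all genes. With the block, 12 and 15 of the collagens and laminins and 9 and 9 of the other products passed, beside 1.7% and 4.32% of all genes. Col6a3 went from 0 and 8.10 normalized counts in Ctrl to 605 and 1020.5 in Eff, and Dcn from 2.59 and 5.08 in LPS to 181 and 198 in LPSEff. The 15 other secreted products had medians of 1.87 and 2.03, with ranges from -0.42 to 5.08 and from -0.38 to 5.35. Of them, 11 and 12 had a positive difference. Among the most abundant, Vcan (0.46 and -0.16) and Tgfbi (-0.01 and -0.04) changed little and Fn1 was higher (1.87 and 2.22). Prrx1, a mesenchymal transcription factor, passed in LPSEff against LPS (3.88 and 5.08 against 227 and 355), 1 of 9 such factors, and with the block 4 did there and 2 in Eff against Ctrl. The 15 cytoskeletal genes had medians of 0.49 and 0.30, with ranges from -0.59 to 2.27 and from -0.87 to 2.15, and with the block 3 passed as higher in each comparison and 2 as lower in LPSEff against LPS. Vim, which Mϕ also express, lay between 11824 and 18769 in all samples.

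**Figure D4:**
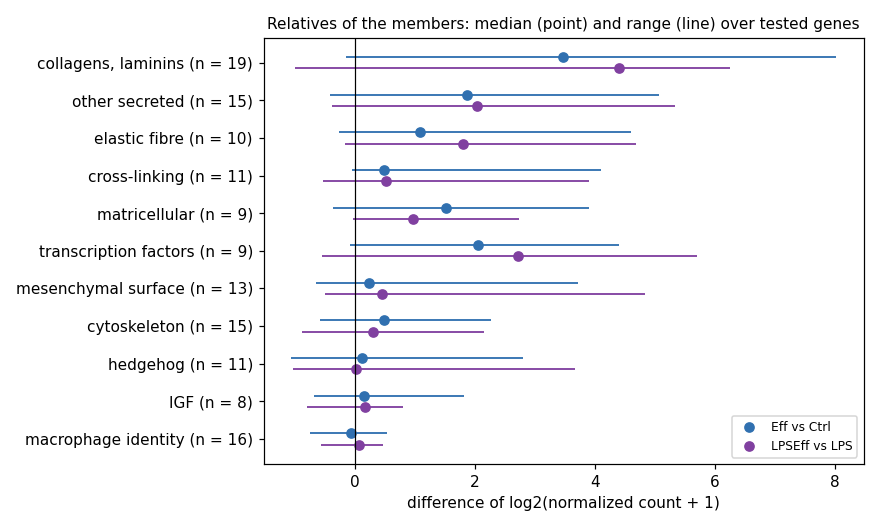
The horizontal axis plots the difference of log2(normalized count + 1), with a point at the median and a line over the range of the tested genes of each list (number in parentheses), for Eff against Ctrl and LPSEff against LPS. Collagens and laminins have the highest medians, 3.48 and 4.41, and Mϕ identity genes the medians -0.07 and 0.07.

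The summed level of the 21 collagens and laminins was 849 and 1134 normalized counts in Ctrl, 2482 and 1891 in LPS, against 4041 and 6379.8 in Eff and 11168 and 8856 in LPSEff, with none of them at 0 reads in both samples of a group. It was thus higher in both Eff samples than in both Ctrl samples and higher in both LPSEff samples than in both LPS samples, like the 5 scarce transcripts. Ptprc was 3669 and 5564 in Ctrl and 2526 and 3968 in Eff. It was 7001 and 10958 in LPS and 5185 and 10842 in LPSEff, and samples overlapped in both comparisons. How far fibroblast RNA, engulfed or from cells carried along, makes up the levels of the members was not tested.

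Markers of other cells of the marrow were read too. The 12 marrow stroma and osteoblast genes, 5 of them tested, had median log2 differences of 0.02 in Eff against Ctrl and -0.03 in LPSEff against LPS. Both medians are the values of Spp1, which was abundant in every group. The ranges over the 5 were from -0.22 to 0.99 and from -0.42 to 1.17. Bglap2 was at 0 reads in all samples. The 3 tested endothelial genes had medians of 0.38 and 0.13, the 3 tested mast cell and basophil genes of -0.35 and -0.41 and the 7 tested neutrophil granule genes of -0.02 and -0.29. Of the last, S100a8 passed in Eff against Ctrl, with 308 and 269 normalized counts in Ctrl and 665 and 699 in Eff. With the block it passed as higher in LPSEff against LPS as well.

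The mean of the 10 members' standardized log2 values was lowest in Ctrl (-0.95 and -0.99), near 0 in LPS (-0.03 and -0.02), -0.04 and 0.39 in Eff and 0.80 and 0.84 in LPSEff. The genes whose log2 values followed this mean most closely over the 8 samples were Zfta (Pearson's r = 0.996), Rgs16 (0.988) and S100a8 (0.985), all higher with LPS/IFNγ as well as with efferocytosis. The samples share group and library, so that these values only describe likeness.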

How the data were processed

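Total RNA of 8 samples was depleted of rRNA and sequenced. Per the study's methods and the submitters' processing notes, the authors trimmed reads with cutadapt, removed rRNA reads with Bowtie2, aligned the rest to mm39 with STAR, counted them per gene with HTSeq in its default mode and used DESeq2, with versions not given in the sources used here. As deposited, each value is a signal, the normalized count, in which the authors divided reads by a size factor per sample. Reads were recovered from its steps, and 100% of the values were whole multiples within a tolerance of 0.01 reads. Count models on the recovered reads were alternatives only. Without knowledge of whether the kit kept strand, overlapping genes on opposite strands are uncertain.

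Names, positions and exon lengths came from GENCODE vM39 on GRCm39, in which 54749 identifiers were found. limma-trend (3.58.1 in R 4.3.3) was fitted to log2(normalized count + 1) of 16309 genes whose mean reached 10, using all 8 samples with 1 mean per group, Benjamini-Hochberg adjustment over all genes and a call at adjusted p under 0.05, two-sided. All adjusted p-values are from limma unless edgeR (version 4.0.16) or DESeq2 (version 1.42.0) is named. The fit was also run on simulated counts with known changes. Those counts held no deviation shared by replicate number, unlike these data, so that the run does not vouch for the calls here. With 2 samples a group, p-values rest on a spread shared across genes, and measure the spread between these samples, which may be technical.

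Differences between samples numbered 1 and 2 correlated across genes between every pair of groups (Pearson's r from 0.404 to 0.595). Fits with the replicate number as a block are therefore given where they change a call of a member, or a count over a list in the efferocytosis comparisons. The numbers come from the sample names. Alternatives were pseudocounts of 0.5 and 5, a minimum mean above 0 or of 50, a fit of the compared groups alone, the block, equal totals, quantile normalization, edgeR, DESeq2 and leaving out each sample. The block in edgeR and DESeq2 was added later, with the values known. The members, the gene lists and the rule for named genes (the members, the 3 most abundant genes and the 3 with the largest difference between LPSEff and LPS of each list, and the genes with the most similar profile) were chosen with earlier results of these data known. Polysome, protein and migration experiments were not analysed here.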

Additional observations from a re-analysis of the deposited data

Results flagged for a closer look

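Pdgfrb was singled out because its efferocytic samples lay above the naïve ones without stimulation and below them with it. Both Eff samples (19.3 and 38.1 normalized counts) were above both Ctrl samples (15.2 and 11.6), whereas both LPSEff samples (82.3 and 157) were below both LPS samples (246 and 245). The difference between the efferocytosis effects was -2.08 on the log2 scale (SE 0.59, 95% interval from -3.44 to -0.71). It is made of the differences that chose the members, so that it was not tested on independent values.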

How the results depend on the processing

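No difference changed its sign against a call under any alternative, and of the values of single members under alternatives 894 kept their call, 47 gained and 44 lost it. The members higher in Eff than in Ctrl numbered 2 with a mean of at least 50 (of all 10868 genes then tested, 16), 1 with only the groups compared (of all 16309 genes, here and below, 7), 7 with the replicate block (277), 2 with edgeR (12) and 7 with edgeR and the block (270). In LPSEff against LPS, 1 member (Pdgfrb) was lower with edgeR and the block (518) and 1 with DESeq2 and the block (476), and the median was 4.27 with a mean of at least 50. In LPS against Ctrl, 5 were higher with the block (3337) and 5 with edgeR and the block (3439), and the median was 0.69 with a pseudocount of 5, 0.54 with equal totals, 0.60 with quantile normalization, 1.79 with edgeR, 1.32 with DESeq2, 1.90 with edgeR and the block and 1.32 with DESeq2 and the block. In LPSEff against Eff, 4 were higher with only the groups compared (1710), 4 with the block (3101), 1 with equal totals (1216), 5 with DESeq2 (2025), 5 with edgeR and the block (3443) and 4 with DESeq2 and the block (2924). For the interaction, the median was -0.76 with DESeq2, and 3 were lower with DESeq2 and the block (9). The cause was not tested. Leaving out each sample also changed how many members passed, as it did for all genes. The members' medians then ranged from 3.25 to 4.68 in Eff against Ctrl and from 2.39 to 3.27 in LPSEff against LPS. They ranged from 0.64 to 1.47 in LPS against Ctrl and from 0.69 to 1.88 in LPSEff against Eff. For the interaction the range was from -1.03 to 0.62. In limma, the replicate block changed no call of a member beyond those given. With the block in edgeR and DESeq2, Fbn1 was called higher in LPSEff than in LPS (adjusted p = 0.0262 and 0.0169), and DESeq2 lost Lox in LPSEff against Eff (adjusted p = 0.0679). At this depth, the naïve levels of Efemp1 and Igfbp6, at most 3 reads in each sample, cannot be told from 0.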
